A study of Mus musculus with 6 samples.

Results

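The cytochrome P450 genes of the mouse were examined for H3K9me3, trimethylated lysine 9 of histone H3, in neural stem cells (NSCs). A gene was counted as a member when the GENCODE annotation of mm10 listed it as protein-coding on chromosomes 1 to 19 with a symbol made of Cyp, a family number, a subfamily letter and a gene number, and Cyp51 was counted with them. This rule, which uses no measured value, found 94 genes of the 20807 protein-coding genes on these chromosomes. It leaves out 6 P450 genes with a 2-letter subfamily or a trailing letter (Cyp2ab1, Cyp3a41a, Cyp3a41b, Cyp4a12a, Cyp4a12b and Cyp4a30b), of which 5 had no covered base in any library and Cyp4a30b had 3000 bp in shPHF8 replicate 2 alone.

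The NSCs were taken from fetal cortex of the C57BL/6J strain, were grown in culture with EGF and FGF and were infected with a lentivirus that carried either a scrambled shRNA (shCTR) or an shRNA directed at PHF8 (shPHF8), with puromycin selection of the infected cells. H3K9me3 was mapped by chromatin immunoprecipitation and sequencing in 2 libraries per condition, and the 2 inputs were not used here. PHF8 is a histone demethylase that acts on H3K9me2 and H4K20me1, and its depletion cannot be checked from these peak lists. The labels do not say whether the libraries of a condition came from separate infections or cultures, so p-values measure the spread between these libraries, which may be technical.

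P450 enzymes are heme-containing monooxygenases that put an oxygen atom into a lipid or a foreign compound. Those of the Cyp1 to Cyp4 families mostly clear drugs, toxins and fatty acids in the liver, gut, lung and skin, and many of their genes lie side by side as near copies made by duplication. The others have fixed tasks in the synthesis of cholesterol, bile acids and steroid hormones or in the turnover of vitamin D and retinoic acid, and most lie alone. H3K9me3 is the mark of constitutive heterochromatin, found over repeats and over families of duplicated genes, and it can also cover single silent genes.

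The deposited lists give only the positions of called peaks, with no height, score or read number, so the reads behind a peak are not known from them and no signal within a peak was compared. The measurement is therefore the number of bases of a gene, with the 3 kb on either side of its start site, that lie under peaks of a library. On chromosomes 1 to 19 the lists held 53039 and 53852 peaks over 156 and 159 Mb in the shCTR libraries, against 44205 and 55344 peaks over 219 and 197 Mb in the shPHF8 libraries. Both shPHF8 libraries thus had more covered bases over the genome, and the main counts are also given after scaling the libraries to equal totals. Values for single libraries are given throughout in the order shCTR 1, shCTR 2, shPHF8 1 and shPHF8 2, with the number standing for the replicate. Of 6 genes known to be active in NSCs, 3 (Vim, Pax6 and Fabp7) had a peak within 3 kb of the start site in at least 1 library, and Pax6 had one in all 4. Over all protein-coding genes these shares were 29.3% and 11.7%. In that window Vim had 727 bp in shCTR 2 alone, Fabp7 had 2401, 1201, 801 and 0 bp, and Pax6 had 4300, 5300, 5500 and 5700 bp.

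The promoters of 5 members are shown because they span the range of what was found: one under a peak in every library (Cyp26a1), its neighbour under a peak in the shPHF8 libraries (Cyp26c1), one with fewer covered bases in the shPHF8 libraries (Cyp2r1), one from the chromosome 7 cluster (Cyp2b19) and one from the large Cyp2c cluster, which was almost free of peaks within its genes (Cyp2c37). Each runs 5′ to 3′ from 250 bases before to 50 bases after the RefSeq start in GRCm38.p6, and capitals mark the CG dinucleotides. They lie at chr19:37697558-37697857 on the plus strand, chr19:37685430-37685729 on the plus strand, chr7:114562923-114563222 on the minus strand, chr7:26756892-26757191 on the plus strand and chr19:39992174-39992473 on the plus strand.
Cyp26a1: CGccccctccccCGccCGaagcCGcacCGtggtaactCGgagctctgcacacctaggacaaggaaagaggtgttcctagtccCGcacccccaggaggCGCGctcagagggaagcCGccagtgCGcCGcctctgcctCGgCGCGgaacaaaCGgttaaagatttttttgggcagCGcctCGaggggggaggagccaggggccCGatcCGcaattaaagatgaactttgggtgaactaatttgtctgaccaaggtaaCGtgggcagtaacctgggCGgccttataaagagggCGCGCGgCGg
Cyp26c1: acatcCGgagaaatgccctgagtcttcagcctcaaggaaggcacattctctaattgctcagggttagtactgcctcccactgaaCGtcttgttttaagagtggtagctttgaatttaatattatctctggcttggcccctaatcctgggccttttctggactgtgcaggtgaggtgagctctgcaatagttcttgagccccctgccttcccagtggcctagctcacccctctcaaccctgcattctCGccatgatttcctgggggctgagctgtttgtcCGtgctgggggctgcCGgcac
Cyp2r1: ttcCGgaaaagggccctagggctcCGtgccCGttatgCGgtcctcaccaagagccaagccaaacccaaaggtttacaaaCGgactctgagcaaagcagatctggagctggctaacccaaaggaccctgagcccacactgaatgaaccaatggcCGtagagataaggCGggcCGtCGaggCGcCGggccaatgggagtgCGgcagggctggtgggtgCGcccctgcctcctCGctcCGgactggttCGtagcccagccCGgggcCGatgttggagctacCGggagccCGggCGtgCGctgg
Cyp2b19: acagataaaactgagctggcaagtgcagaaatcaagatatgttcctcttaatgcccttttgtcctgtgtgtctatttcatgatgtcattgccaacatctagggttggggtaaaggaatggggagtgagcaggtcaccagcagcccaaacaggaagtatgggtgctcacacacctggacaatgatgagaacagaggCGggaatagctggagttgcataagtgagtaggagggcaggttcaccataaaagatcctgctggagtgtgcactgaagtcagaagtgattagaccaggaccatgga
Cyp2c37: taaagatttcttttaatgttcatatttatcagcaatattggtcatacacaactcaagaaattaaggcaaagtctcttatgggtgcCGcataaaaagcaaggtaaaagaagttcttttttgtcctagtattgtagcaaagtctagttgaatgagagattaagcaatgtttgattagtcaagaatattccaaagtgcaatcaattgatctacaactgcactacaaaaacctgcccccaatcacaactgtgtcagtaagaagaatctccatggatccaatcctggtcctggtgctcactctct

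The 300 bases of Cyp26a1 held 26 CG dinucleotides and those of Cyp2r1 held 22. The promoter of Cyp26c1 held 5, and those of Cyp2b19 and Cyp2c37 held 1 each. Peaks covered all 300 bases of Cyp26a1 in all 4 libraries and none of those of Cyp2c37 in any library. At Cyp26c1 they covered 0 and 0 bases in the shCTR libraries, against 300 and 129 in the shPHF8 libraries. At Cyp2r1 the values were 300, 300, 0 and 300 bases in the same order, and at Cyp2b19 they were 0, 0, 300 and 300. A CG-rich and a CG-poor promoter were thus both found under peaks, and the shown sequences do not sort by their number of CG dinucleotides.

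RefSeq promoters matched 73 of the 94 members by symbol. They held a median of 3 CG dinucleotides, against 7 over all 27025 promoters of the same length. The 55 matched promoters of clustered genes had a median of 2, and the 11 of sterol and vitamin genes had a median of 9. All 300 bases lay under peaks of all 4 libraries at 1 matched member, Cyp26a1, and 58 lay under no peak of any library. Coverage of these 300 bases was not computed over all 27025 promoters, so these counts have no background beside them. For 4 matched members the RefSeq start was over 1 kb from the GENCODE start used for the covered bases.

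A pair of letter patterns was looked for on both strands of these 300 bases. A direct repeat of AGTTCA with 5 free bases between the copies (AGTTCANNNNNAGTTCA), a form bound by retinoic acid receptors, was found in 7 of 27025 promoters (0.0259%) and in 1 of the 73 matched members. That member was Cyp26a1, where the repeat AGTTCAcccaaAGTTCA, with the copies in capitals, lay on the opposite strand at chr19:37697776-37697792, 32 to 16 bases before the RefSeq start and under peaks of all 4 libraries. The core GCGTG, bound by the aryl hydrocarbon receptor with its partner Arnt, was found in 15 of the 73 matched members and in 32.5% of all promoters. Only these exact letters were searched, so repeats with other spellings of the copies were not counted. The copies searched for are spelled as in the Cyp26a1 repeat itself, so the match at Cyp26a1 was not read as a result of the search. The low share of promoters with a repeat belongs to this spelling alone, and a match describes the letters only.

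Of the 94 P450 genes, 57 had a covered base in at least 1 library and 37 had none. A peak in at least 1 library was found for 53.9% of all protein-coding genes and for 60.6% of the P450 genes. A peak in all 4 libraries was found for 23 P450 genes (24.5%), against 33.4% of all protein-coding genes. Between these ends, 7 members had a peak in 1 library, 15 in 2 and 12 in 3. The P450 genes as a whole were thus neither free of peaks nor uniformly covered. The median covered share of gene and promoter, averaged over the libraries, was 5.11% over the 94 members and 1.04% over all genes, and 8.69% over all genes that had a peak. Summed over bases, peaks covered 4.754, 4.936, 8.040 and 8.654% of the P450 genes with their promoters. For all protein-coding genes the summed shares were 7.122, 7.350, 9.075 and 8.138%. By this measure the P450 share was lower in both shCTR libraries and shPHF8 1, and higher in shPHF8 2. The medians and the summed shares thus did not give the same order.

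**Figure D1:**
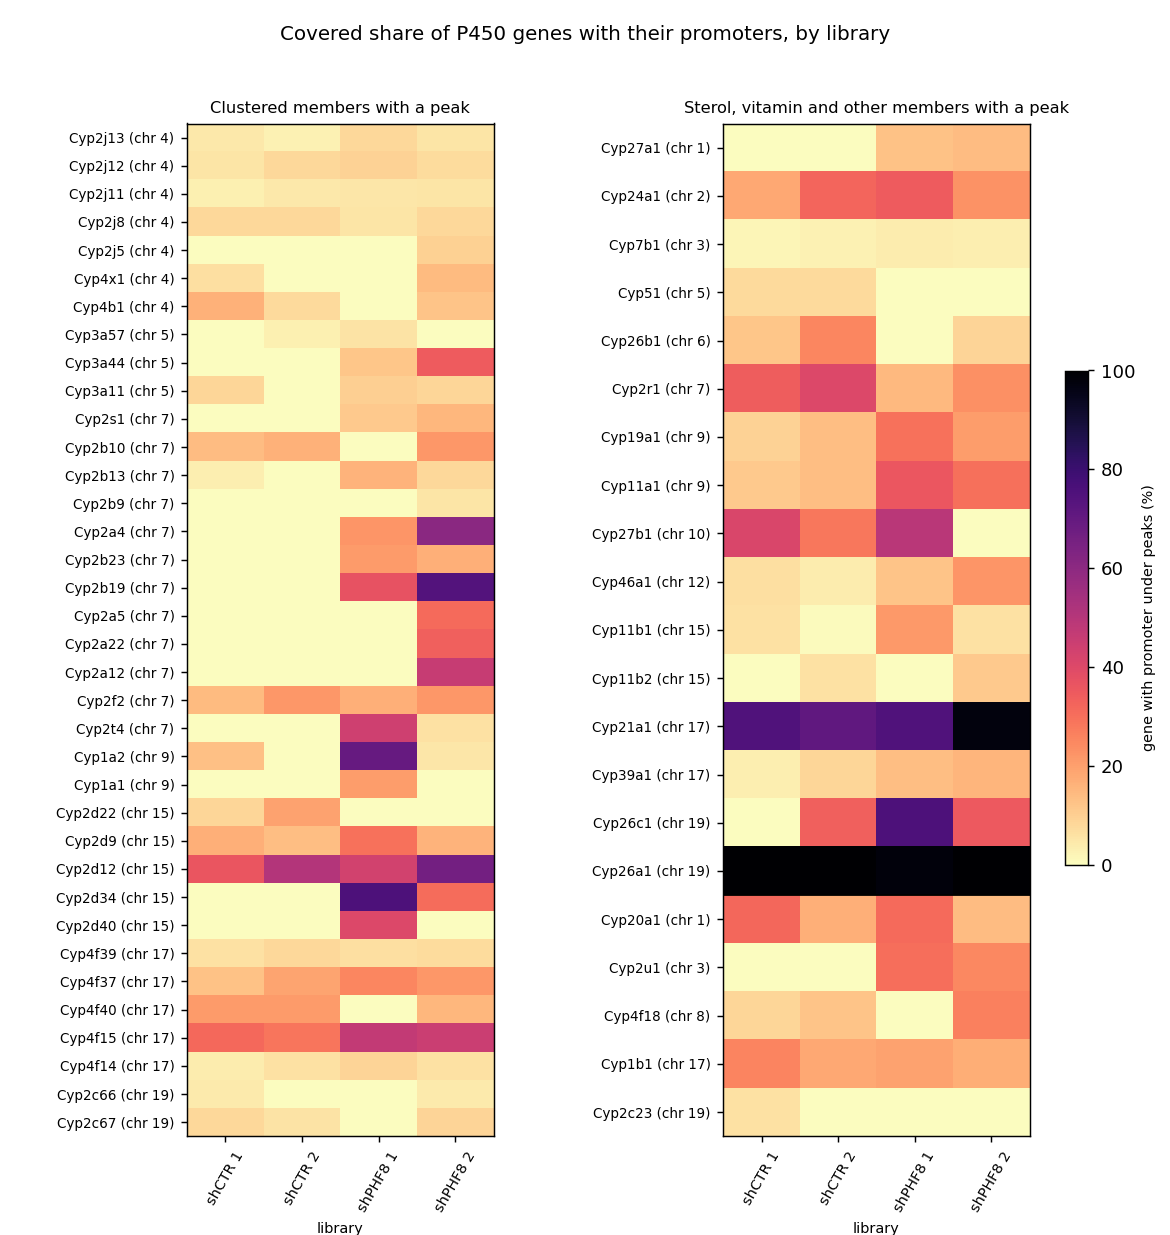
Share of each P450 gene with its promoter that lay under H3K9me3 peaks, in percent (colour), for the 57 members with a peak in at least 1 library (lines) and the 4 libraries (columns). The left panel holds the 36 clustered genes and the right panel the 16 sterol and vitamin genes, with the 5 other genes under the black line. Cyp26a1 was covered over 98.0 to 100% in every library, while several genes of chromosome 7 were covered in the shPHF8 libraries alone.

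The first comparison asked whether the clustered drug-metabolising genes were covered differently from the genes with a fixed task in sterol, steroid or vitamin metabolism. The sterol and vitamin genes were covered over a larger share of their length in every library. Of these 19 genes, 16 (84.2%) had a peak in at least 1 library and 10 (52.6%) had one in all 4. Of the 66 clustered genes, 36 (54.5%) had a peak in at least 1 library, 11 (16.7%) had one in all 4 and 30 had none. Beside these, 53.9% of all protein-coding genes had a peak in at least 1 library and 33.4% had one in all 4. The clustered genes were thus near all genes in the first share and below them in the second. Among the 9 members in neither set, 5 had a peak and 2 had one in all 4 libraries.

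Summed over the clustered genes, peaks covered 3.09 and 2.84% of gene and promoter length in the shCTR libraries, against 5.20 and 6.87% in the shPHF8 libraries. Over the sterol and vitamin genes they covered 8.04, 11.1, 16.2 and 14.2% in the same order. The summed shares of all protein-coding genes, 7.122, 7.350, 9.075 and 8.138%, lay between those of these sets in every library. The clustered share was below the sterol and vitamin share in 4 of 4 libraries, and the values of the 2 sets did not overlap. The difference, clustered minus sterol and vitamin, was −4.95, −8.31, −11.0 and −7.30 percentage points, with a mean of −7.89 ± 2.50 (SD, n = 4 libraries). Between conditions this difference was −6.63 on average in shCTR and −9.15 in shPHF8 (exact two-sided permutation test over libraries, p = 0.667), and the libraries overlapped. Over genes rather than over bases, the median covered share was 2.28% for clustered and 11.2% for sterol and vitamin genes.

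These sets differed in their sequence as well. The share of 50-base windows that occur once in the genome, 50 bases being the read length, had a median of 86.8% over the clustered genes (51.4 to 99.2%) and of 96.8% over the sterol and vitamin genes (75.8% at the lowest). It was 87.1% over the 37 members without a peak and 96.0% over the 23 with a peak in all 4 libraries. With the members under 80% left out, the difference was −5.98 points. How reads that match several places were treated is not given in the sources used here, so the part of sequence identity in the difference was not tested.

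**Figure D2:**
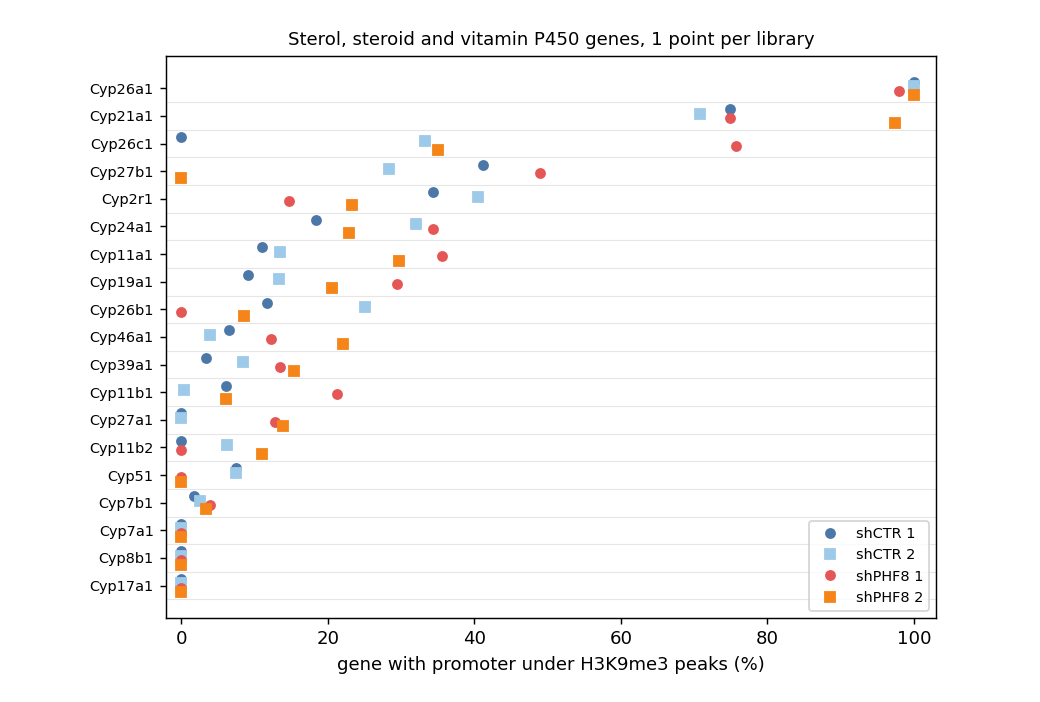
Percent of gene with promoter under H3K9me3 peaks for the 19 sterol, steroid and vitamin P450 genes, 1 point per library, ordered by the mean of the 4 libraries. Cyp26a1 and Cyp21a1 lay above 70% in all 4 libraries, and Cyp7a1, Cyp8b1 and Cyp17a1 were at 0 in all 4.

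The second comparison, the one the study was designed for, set the shPHF8 libraries against the shCTR libraries. Among the 57 P450 genes with a peak, 20 (35.1%) had more covered bases in both shPHF8 libraries than in both shCTR libraries, and 5 (8.77%) had fewer in both. Over all 11224 protein-coding genes with a peak, 27.1% had more in both and 13.0% had fewer. After scaling to equal totals the counts were 16 more (28.1%) and 9 fewer (15.8%), beside 14.6% more and 29.6% fewer over all genes with a peak. A peak in both shPHF8 libraries and in neither shCTR library was found at 9 members, against 1.29% of all protein-coding genes. They were Cyp27a1, Cyp2u1, Cyp3a44, Cyp2s1, Cyp2a4, Cyp2b23, Cyp2b19, Cyp2t4 and Cyp2d34, of which 5 lie in 1 cluster on chromosome 7 and were not counted as independent. The opposite pattern was found at 2 members, Cyp51 and Cyp2d22, against 2.28% of all genes.

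The counts moved with the libraries used. Without shPHF8 replicate 1 they were 32 more and 8 fewer, without shPHF8 replicate 2 they were 31 and 11, and without shCTR replicate 2 there were 9 fewer. Without the chromosome 7 cluster, 14 genes had more covered bases in both shPHF8 libraries. Within 3 kb of the start site alone, 36 members had a peak in at least 1 library, beside 29.3% of all genes, and 11 had one in all 4, which is 11.7% of members and 11.7% of all genes. In that window 8 members had more covered bases in both shPHF8 libraries and 3 had fewer, beside 14.5% and 14.6% over all genes with a peak there. After scaling, 7 members had more and 6 had fewer in this window, beside 8.90% and 31.9% over all genes. A promoter peak in the shPHF8 libraries alone was found at 6 members (1.07% of all genes) and in the shCTR libraries alone at 2 (2.21% of all genes).

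Summed over all 94 members, covered bases were 133015 and 138094 in the shCTR libraries, against 224925 and 242113 in the shPHF8 libraries. The ratio of the shPHF8 to the shCTR mean was 1.72, beside 1.19 over all protein-coding genes and 1.32 over chromosomes 1 to 19. For the clustered genes it was 2.04 and for the sterol and vitamin genes 1.58, and in both sets the shPHF8 libraries lay above the shCTR libraries. Without the chromosome 7 cluster the clustered ratio was 1.54, so the order of the 2 sets rested on that cluster. When each library kept its widest peaks until all covered the same length, the sterol and vitamin ratio was 1.09 and the libraries overlapped (exact permutation test, p = 1), while the clustered ratio was 1.60. For the other members it was 1.18, with overlapping libraries. Scaled to equal totals, the ratios were 1.31 over all members, 1.56 over clustered genes, 1.20 over sterol and vitamin genes, 0.891 over the others and 0.903 over all protein-coding genes. The exact two-sided permutation test gave p = 0.333 for all members, for the clustered and for the sterol and vitamin genes, which is the lowest p that can be had from 2 against 2 libraries, so no ratio here can pass the 0.05 threshold.

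The P450 genes lay in 8 clusters of at least 3 genes with gaps of at most 500 kb, which held 67 members. Cyp11a1, which is in the cluster of chromosome 9, was counted with the sterol genes. More bases of the whole cluster span, intergenic sequence included, were covered in both shPHF8 libraries in 6 of the 8 clusters, and the libraries overlapped in the other 2. Of all bins of 500 kb with a peak, 56.9% had more covered bases in both shPHF8 libraries, so this count was not far from the background. Scaled to equal totals, 4 spans had more (Cyp3a, the chromosome 7 cluster, Cyp1a/Cyp11a and Cyp2c) and 1 had fewer (Cyp2j), beside 26.8% of bins with more.

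**Figure D3:**
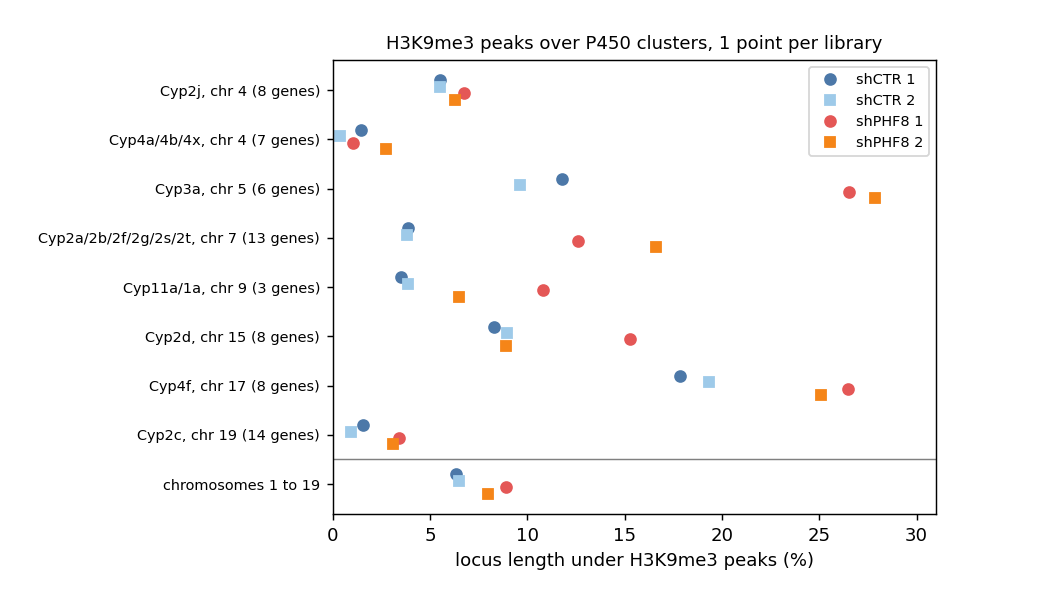
Percent of each P450 cluster span under H3K9me3 peaks, 1 point per library, with chromosomes 1 to 19 as a whole at the bottom. Both shPHF8 points lie to the right of both shCTR points for 6 of 8 clusters, and the widest gaps are those of the Cyp3a and the chromosome 7 clusters.

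The cluster on chromosome 7, chr7:25802475-27158668, holds 13 members of the Cyp2a, Cyp2b, Cyp2f, Cyp2g, Cyp2s and Cyp2t subfamilies. Cyp2b enzymes are the classic targets of phenobarbital induction in the liver, and Cyp2a5 oxidises coumarin and nicotine. Peaks covered 52200 and 51400 bp of the span in the shCTR libraries, against 170600 and 225000 bp in the shPHF8 libraries. The ratio of means was 3.82, or 2.93 after scaling, and it was the highest of the 8 clusters. The number of peaks was 22, 19, 35 and 63 in the same order. Of the 13 genes, 12 had a peak in at least 1 library, 6 had more covered bases in both shPHF8 libraries and 0 had fewer, beside 53.9% of all genes with a peak and, among these, 27.1% with more and 13.0% with fewer. Cyp2g1, an enzyme of the olfactory mucosa, had none.

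Cyp2b19, an arachidonic acid epoxygenase of skin keratinocytes, had the most covered bases of this cluster, with 0 and 0 bp in shCTR and 6800 and 13689 bp in shPHF8. The largest peak parts there ran over the start site at chr7:26756201-26763000 in shPHF8 replicate 1 and chr7:26752801-26762800 in replicate 2. Its neighbour Cyp2b23 (0, 0, 5037 and 4000 bp) and the genes at the ends of the cluster, Cyp2s1 (0, 0, 1913 and 2600 bp) and Cyp2t4 (0, 0, 3487 and 487 bp) were also without a peak in shCTR. Between 90.1 and 98.1% of the 50-base windows of these 4 genes occur once in the genome.

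Cyp2a4, a hydroxylase of testosterone, had 0, 0, 2400 and 6600 covered bases, and Cyp2b13 had 1200, 0, 5997 and 2997. In these genes 54.9 and 63.6% of 50-base windows occur once, and Cyp2a5, the close copy of Cyp2a4, was the lowest of all members at 51.4%. Cyp2a5, Cyp2a22 and Cyp2a12 had peaks in shPHF8 replicate 2 alone (3496, 3600 and 5200 bp). Cyp2b10, the main phenobarbital-induced gene, had 4400, 5200, 0 and 7000 bp, and Cyp2f2, which acts on naphthalene in the lung, had 2400, 3600, 2800 and 3600 bp. Both of these genes carried a peak in the 2 shCTR libraries, so the genes of the cluster did not all share 1 pattern.

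**Figure D4:**
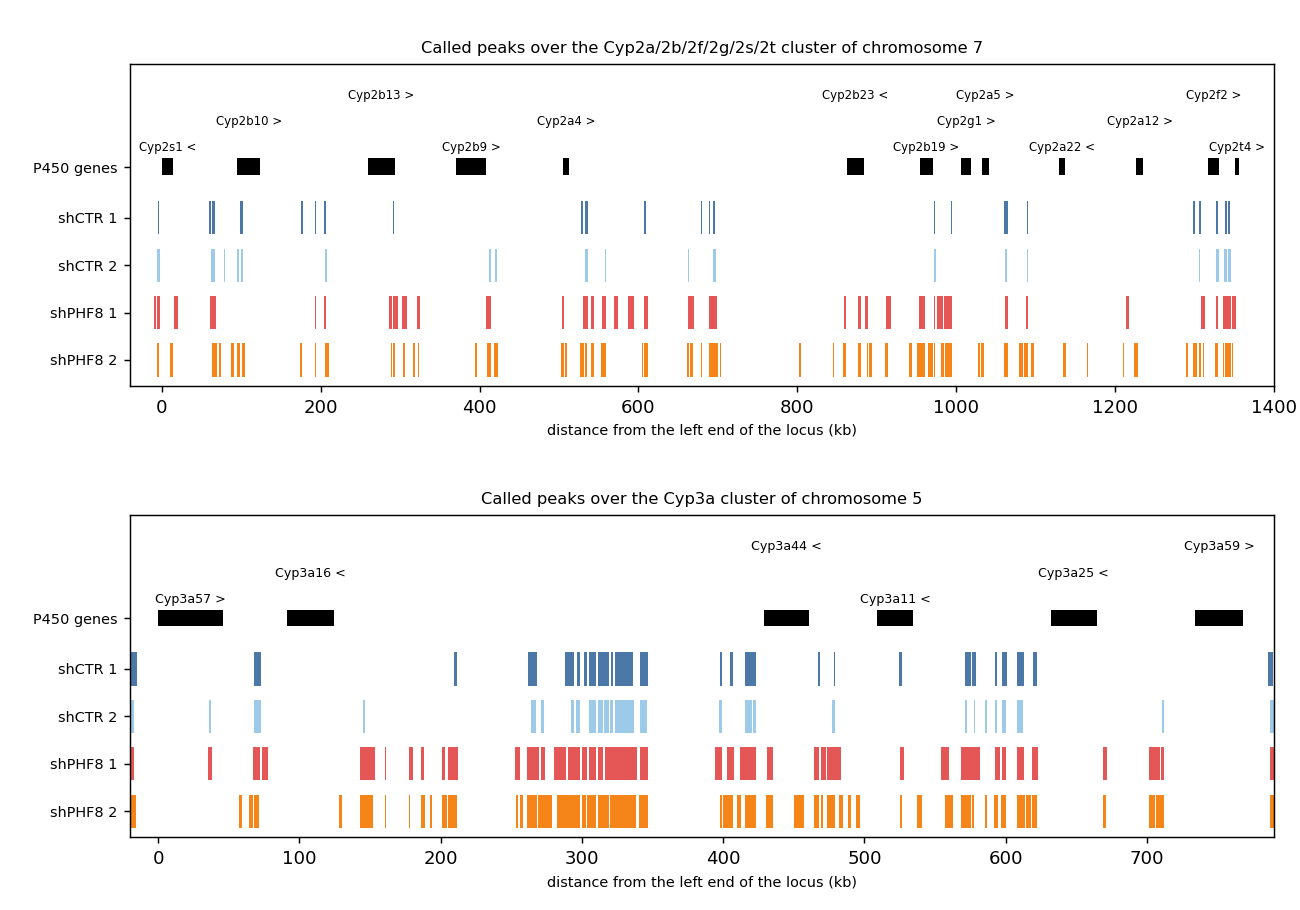
Called H3K9me3 peaks (coloured bars, 1 track per library) and P450 genes (black bars, with the direction of transcription) over the chromosome 7 Cyp2 cluster (top) and the Cyp3a cluster (bottom), as distance in kb from the left end of each locus. The right part of the chromosome 7 locus, around Cyp2b19, held more peaks in the shPHF8 tracks, and the Cyp3a peaks lay mainly between the genes.

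Most covered sequence of the chromosome 7 cluster lay outside P450 genes. P450 gene bodies made up 15.9% of the span and 15.3, 15.5, 12.1 and 19.7% of its covered bases in library order. Sequence outside any annotated gene held 30800, 28447, 99282 and 140019 covered bases. Among the interspersed genes of the NOD-like receptor family, Nlrp9c had 5600, 5400, 28000 and 18200 bp, Nlrp4a had 0, 1800, 8200 and 6800 bp and Nlrp9a had none. The higher values in shPHF8 were thus found across the locus and not at P450 genes alone.

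The Cyp3a cluster on chromosome 5, chr5:145345279-146113287, holds 6 members, among them Cyp3a11, a main drug-metabolising enzyme of mouse liver. Peaks covered 90600 and 74000 bp of it in the shCTR libraries, against 203800 and 214200 bp in the shPHF8 libraries, a ratio of 2.54 or 1.93 after scaling. Covered sequence lay mostly outside any gene, with 83779, 68945, 170323 and 174908 bp. P450 gene bodies made up 26.4% of the span and only 2.65, 1.89, 4.81 and 6.54% of the covered bases. Within genes, Cyp3a44 had 0 and 0 bp in shCTR and 4200 and 12000 bp in shPHF8, and 69.5% of its 50-base windows occur once in the genome. Cyp3a11 had 2400, 0, 2800 and 2364 bp and Cyp3a57 had 0, 1400, 2800 and 0 bp, both with overlapping libraries, and Cyp3a16, Cyp3a25 and Cyp3a59 had none. The pseudogene Cyp3a63-ps had 593, 0, 8593 and 6193 bp.

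The Cyp2c cluster, chr19:39007019-40187333, is the largest of the 8 by gene number, with 14 enzymes of drugs and of arachidonic acid. It was covered less than the genome as a whole in every library, with 18400, 11000, 40200 and 36600 bp of the span under peaks, or 1.56, 0.932, 3.41 and 3.10%. Chromosomes 1 to 19 as a whole were covered over 6.34, 6.46, 8.89 and 7.98%. Of the 14 genes, 12 had no peak in any library, although P450 gene bodies made up 53.4% of the span. The exceptions were Cyp2c67 (3400, 2400, 0 and 3800 bp) and Cyp2c66 (3000, 0, 0 and 3000 bp). They make up 14.3% of the cluster's genes, beside 53.9% of all protein-coding genes with a peak. The ratio over the span was 2.61, or 1.98 after scaling, while 0 bases of P450 bodies were covered in shPHF8 replicate 1. Over the 14 genes with their promoters the ratio was 0.773, or 0.617 after scaling, with overlapping libraries. In this span 69.9% of 50-base windows occur once in the genome, and 60.6% of bases are soft-masked repeats. The nearest peak of any library lay 0.857 to 118 kb from the 12 genes without one, with a median of 16.2 kb.

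The Cyp4f cluster, chr17:32452723-32947402, had the most covered span of the 8 clusters in the shCTR libraries. Its 8 members include enzymes that hydroxylate leukotrienes and long-chain fatty acids. Peaks covered 88200, 95600, 131000 and 124200 bp, or 17.8, 19.3, 26.5 and 25.1% of the span. The ratio was 1.39, but after scaling it was 1.06 and the libraries overlapped. Cyp4f15 had the most covered bases of its genes, 6552, 5952, 9752 and 9352 bp, and Cyp4f37 had 2292, 3400, 4492 and 3892 bp. Cyp4f40 had fewer in both shPHF8 libraries, with 4400, 4400, 0 and 3200 bp. The zinc finger gene Zfp871, in the same span, had 9905, 10105, 9505 and 11105 bp.

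The Cyp2j cluster on chromosome 4, chr4:96027534-96664154, holds 8 epoxygenases of arachidonic acid. Its span had 35000, 35000, 43000 and 40000 covered bases, a ratio of 1.19 that became 0.901 after scaling. Cyp2j8 had the most covered bases, 5200, 5200, 3400 and 5200 bp. Cyp2j13 (2400, 1400, 4200 and 2800 bp) and Cyp2j11 (1600, 2600, 2800 and 3000 bp) had more in both shPHF8 libraries, and neither did after scaling. All covered bases of the 8 genes were more than 3 kb from a start site. At the other cluster of chromosome 4, chr4:115106323-115647723, 5 of the 7 members (fatty acid hydroxylases of the Cyp4a subfamily) had no peak, and Cyp4b1 had 4200, 2000, 0 and 3200 bp. A peak in at least 1 library was thus found at 28.6% of these 7 members, beside 53.9% of all protein-coding genes.

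The Cyp2d cluster, chr15:82370527-82794294, holds 8 members whose enzymes act on many drugs. Its span had 35200, 38000, 64800 and 37800 covered bases, and shPHF8 replicate 2 lay between the shCTR libraries. Cyp2d34 had 0, 0, 6036 and 2436 bp, while Cyp2d22 had 1060, 2460, 0 and 0 bp. Cyp2d9, a male-specific steroid hydroxylase of the liver, had the most covered bases (4364, 3564, 7764 and 4164 bp), with overlapping libraries. It is 1 of the 4 members whose RefSeq start is over 1 kb from the GENCODE start, at a distance of 18940 bp. Its peaks ended at or before chr15:82438200, upstream of the RefSeq promoter at chr15:82452127-82452426. The 2 conditions thus differed in opposite directions at separate genes of 1 cluster.

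At the cluster of chromosome 9, chr9:57676937-58027023, peaks covered 12264, 13600, 37864 and 22687 bp, a ratio of 2.34 or 1.76 after scaling. Cyp1a1 and Cyp1a2 oxidise aromatic hydrocarbons and are induced through the aryl hydrocarbon receptor. Cyp1a1 had a peak in shPHF8 replicate 1 alone (3873 bp). That peak ended at chr9:57688800, upstream of the RefSeq promoter at chr9:57697363-57697662, whose start is 9685 bp from the GENCODE start. Cyp1a2 had 1264, 0, 6767 and 464 bp. The related Cyp1b1, alone on chromosome 17, had 4200, 3000, 3200 and 2800 bp and so a peak in every library. No difference between conditions was seen beyond the spread of the libraries at these 3 genes. Cyp11a1, in the same cluster, is described with the steroid genes.

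Retinoic acid is inactivated by Cyp26a1, Cyp26b1 and Cyp26c1. Cyp26a1, chr19:37697798-37701536 on the plus strand, was the most covered member. Its gene and promoter, 6739 bp in all, lay under a peak over 6739, 6739, 6603 and 6739 bp. The peaks ran over chr19:37694001-37701600 and chr19:37691201-37702200 in the shCTR libraries, and over chr19:37693201-37701400 and chr19:37692801-37702800 in the shPHF8 libraries. The same CG-rich promoter shown above thus lay within a broad peak in each of the 4 libraries. At least 50% of gene and promoter was covered in all 4 libraries at 2 members, Cyp26a1 and Cyp21a1, beside 2.03% of all protein-coding genes.

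Cyp26c1, chr19:37685581-37693398, lies just upstream of Cyp26a1 on the same strand. It had 0, 3598, 8198 and 3798 covered bases. The values of shCTR replicate 2 and shPHF8 replicate 2 lay close together, so its place among the genes with more covered bases in both shPHF8 libraries rests on a narrow gap. Cyp26b1, chr6:84571414-84593908, had 3000, 6400, 0 and 2200 bp and was among the 5 members with fewer in both shPHF8 libraries. Its peaks were within the gene and more than 3 kb from the start site. The 3 enzymes of retinoic acid breakdown thus each showed a different pattern.

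**Figure D5:**
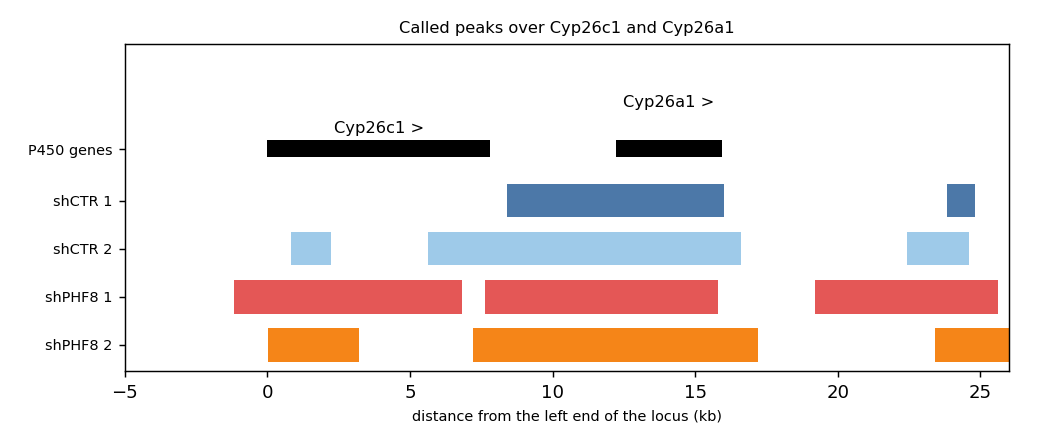
Called H3K9me3 peaks (coloured bars, 1 track per library) over Cyp26c1 and Cyp26a1 (black bars, transcribed to the right), as distance in kb from the left end of Cyp26c1. All 4 tracks have a peak across Cyp26a1, and shCTR 1 has none over Cyp26c1.

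Vitamin D is activated by Cyp2r1 and then Cyp27b1, and it is inactivated by Cyp24a1. Cyp2r1, chr7:114549682-114562972 on the minus strand, had 5600, 6600, 2400 and 3800 bp, fewer in both shPHF8 libraries. Within 3 kb of its start site the values were 4629, 5629, 1429 and 3029 bp. In shPHF8 replicate 1 the peak over the start site was not called and one in the gene, chr7:114559001-114561400, was present as in shCTR replicate 1. Cyp27b1 had 3200, 2200, 3800 and 0 bp and Cyp24a1 had 3200, 5600, 6000 and 4000 bp, both with overlapping libraries.

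Of the genes for cholesterol and bile acid synthesis, Cyp51, the lanosterol demethylase of cholesterol synthesis, had the same peak in both shCTR libraries, chr5:4101001-4103000 (2000 bp), and none in shPHF8. Cyp7a1, the rate-limiting enzyme of bile acid synthesis, and Cyp8b1, a later enzyme of that pathway, had no peak in any library. Cyp27a1, the mitochondrial sterol hydroxylase of bile acid synthesis, had 0 and 0 bp in shCTR and 3492 and 3800 bp in shPHF8. The oxysterol hydroxylases Cyp39a1 (3000, 7400, 11800 and 13400 bp) and Cyp7b1 (3000, 4400, 6800 and 6000 bp) had more in both shPHF8 libraries, all of it in introns. Cyp46a1, which turns brain cholesterol into an oxysterol that can leave the brain, had 2000, 1200, 3800 and 6834 bp. In this group 4 genes had more covered bases in both shPHF8 libraries, 1 had fewer and 2 had no peak, beside 27.1% more and 13.0% fewer over all genes with a peak.

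Of the steroid hormone genes, Cyp19a1, the aromatase that makes oestrogens, had the largest difference of all members in covered bases. It had 9600 and 14000 bp in shCTR and 31000 and 21600 bp in shPHF8, a ratio of means of 2.23, and its covered bases were all more than 3 kb from the start site. Without it, the ratio over the sterol and vitamin genes was 1.42. Cyp11a1, which cleaves the side chain of cholesterol as the first step to steroids, had 2600, 3200, 8400 and 7023 bp, a ratio of 2.66. Cyp21a1, a hydroxylase of glucocorticoid and mineralocorticoid synthesis, had 4653, 4400, 4653 and 6053 bp of 6214, with overlapping libraries. Its copy Cyp21a2-ps, a pseudogene, had 2440 bp in each of the 4 libraries, and 75.8% of the 50-base windows of Cyp21a1 occur once in the genome. Cyp11b1 (643, 43, 2243 and 643 bp) and Cyp11b2 (0, 518, 0 and 918 bp), which make corticosterone and aldosterone, lie side by side. The bases of Cyp11b1 belonged to a peak between the genes, which covered 2400, 1800, 5800 and 5200 bp, and those of Cyp11b2 belonged to another peak beyond its start site. Cyp17a1, needed for androgens, had no peak.

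Outside the clusters and the sterol list, Cyp2u1, a hydroxylase of long-chain fatty acids, had 0 and 0 bp in shCTR and 5387 and 4387 bp in shPHF8. The peaks held 2867 bp of its exons in each shPHF8 library. Cyp20a1, whose substrate is unknown, had 15200, 8000, 14800 and 6600 bp, a pattern that separates the replicate numbers and not the conditions. Cyp2e1, which oxidises ethanol, and 3 other members had no peak.

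Within gene bodies, exons made up 10.8, 12.8, 14.3 and 15.9% of the covered bases of clustered genes in library order, and 17.9, 14.4, 15.2 and 14.0% for the sterol and vitamin genes. Covered sequence was thus mostly intronic in both sets. Soft-masked repeats made up 30.0% of the bases under peaks and 37.2% of the bases outside peaks in the regions of the 94 members. The uncovered bases include those of the 37 members without a peak. These pooled shares therefore do not compare covered with uncovered sequence within the same genes, which was not tested.

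The P450 enzymes depend on electron donors such as Por and on nuclear receptors that set their transcription. Of 29 such partner and regulator genes, 21 had a peak, 12 had one in all 4 libraries, 6 had more covered bases in both shPHF8 libraries and 1 had fewer, beside the 27.1% and 13.0% of all genes with a peak. Those with more included Ppara, the fatty acid receptor that induces Cyp4a genes (11400, 9200, 23200 and 24000 bp), Rarb, a retinoic acid receptor (59600, 65800, 94800 and 87400 bp), and Hnf4a, a regulator of liver genes (4993, 2993, 8193 and 10393 bp). The others were Vdr, the vitamin D receptor (10200, 13400, 15800 and 16000 bp), Nr5a1, which drives steroid synthesis (5200, 7600, 14400 and 7800 bp), and Nr0b2, a repressor in bile acid synthesis (625, 1425, 2225 and 1825 bp). Por, the reductase that passes electrons to P450 enzymes of the endoplasmic reticulum, had fewer, with 14768, 15000, 12768 and 12000 bp. The receptors of foreign compounds Nr1i3 and Ahr had no peak, and Nr1i2 had one in shPHF8 replicate 1 alone (5400 bp). Within 3 kb of the start site alone, 3 of the 29 genes had more in both shPHF8 libraries and 3 had fewer. Over all genes with a peak in that window these shares were 14.5% and 14.6%. Vdr had fewer there (3400, 4171, 3200 and 0 bp), and Ppara and Rarb had no covered base there. After scaling, 4 of these genes had more and 5 had fewer, so the direction of this list depended on the scaling.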

How the data were processed

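H3K9me3 ChIP-seq was analysed in 4 libraries of mouse NSCs, 2 with shCTR and 2 with shPHF8, grouped by the titles in the labels. The methods, which describe the ChIP-seq of another mark, H4K20me1, state that the authors placed reads on mm10 with SOAPaligner/SOAP2 and called broad peaks with SICER2, and whether this holds for the H3K9me3 lists is not stated. The submitters' processing notes name Bowtie2 2.3.5.1, SAMtools 1.9 and deepTools with no role. Window, gap, threshold, use of the input and treatment of reads that match several places are not given in the sources used here. The deposited lists, 1 per library, hold peak positions only, with no count, signal or score. Read totals per library are given in the study's supplement, where shPHF8 replicate 2 has the fewest, and covered bases were not adjusted for them. An island is called present or absent by a threshold that depends on depth, and a wider island can come from a bridged gap, which affects every covered length here.

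Covered bases were counted per gene with 3 kb on either side of its start (GENCODE annotation of GRCm38), per promoter window and per cluster span. A gene had more in shPHF8 when both its values exceeded both shCTR values. For scaling, covered bases were multiplied by 1.17, 1.15, 0.835 and 0.930 in shCTR replicates 1 and 2 and shPHF8 replicates 1 and 2. Sums were compared with an exact permutation test over libraries, whose lowest p is 0.333. Clusters, the sterol and vitamin list and the partner list were set by position or function. Members and lists were chosen with earlier results of these data known. The genes named were the most covered of each cluster, the 5 largest differences in each direction among genes without overlap, those at least 50% covered in all 4 libraries, the sterol and vitamin genes with a peak and the partner genes without overlap. Other members of a cluster were named after their values were seen. Sequences came from RefSeq GRCm38.p6, and protein sequences were not used here, so the planned comparison of proteins was not made. Python 3.11.15, numpy 2.4.6, scipy 1.17.1, numba 0.67.0 and matplotlib 3.10.9 were used. Coverage was checked against bedtools 2.31.1 on simulated data. The alternatives were the promoter window alone, scaling, wider peaks only, equal covered lengths, a gap between conditions, other cluster gaps, each library left out and the replicate number as a block. Those without near copies, without single clusters, without Cyp19a1 and with crossed pairs were added after seeing the data.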

Additional observations from a re-analysis of the deposited data

How the results depend on the processing

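Of 94 alternative values for the 6 results tested, 78 kept their direction and stayed within the limits set for counts and for the share difference. These were a factor of 1.5 for counts and a shift under 2.50 points for the share difference. The ratios had no limit beyond staying on the same side of 1, so a ratio as low as 1.09 is among the 78. The 20 genes with more covered bases in both shPHF8 libraries became 8 in the promoter window alone and 10 when each library kept its widest peaks until all libraries covered the same length. The 5 genes with fewer became 3 in the promoter window, 9 after scaling to equal totals and 9 with the widest peaks. The 23 genes with a peak in all 4 libraries became 11 in the promoter window, 14 with the widest peaks and 2 when at least 50% of gene and promoter had to be covered. The covered share of clustered minus sterol and vitamin genes was −13.2 points in the promoter window and −10.6 as a difference of medians over genes. The ratio over the sterol and vitamin genes turned below 1 in the promoter window alone, at 0.984. With the widest peaks it was 1.09 and the libraries overlapped. Without shPHF8 replicate 1 it was 1.48, and shPHF8 replicate 2 (86808 bp) lay above both shCTR libraries (49235 and 68298 bp). The cause of these shifts was not tested. With each library left out in turn, 26 to 32 genes had more and 6 to 11 had fewer, since fewer values have to be exceeded, 24 to 29 had a peak in all remaining libraries, the share difference was −8.87 to −6.85, and the ratios were 1.76 to 2.32 over clustered and 1.36 to 1.89 over sterol and vitamin genes. The replicate numbers share only a number, as the deviations of same-numbered libraries correlated at −0.107 over genes. With the replicate number as a block, 25 genes had more and 7 fewer, and the ratios were 2.05 and 1.64. Crossed pairs gave 25 and 6. The peak count over all 4 libraries and the share difference have no paired form. The lists hold no height, score or read number, so a gene without a peak is one where no peak was called at the depth of that library, and covered lengths were not compared at equal depth.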

Other observations

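P450 pseudogenes, which the rule leaves out, were read over their bodies alone, without the start-site window used for the members. No share over the bodies of all genes or pseudogenes was computed, so the counts below have no background beside them. Of 30 on chromosomes 1 to 19, 13 had a covered base in their body in at least 1 library and 5 in all 4. In 2 of them, Cyp2b27-ps (2000, 2800, 3600 and 5400 bp in shCTR replicates 1 and 2 and shPHF8 replicates 1 and 2) and Cyp3a63-ps (593, 0, 8593 and 6193 bp), both shPHF8 libraries had more covered bases, and 0 had fewer. Cyp2c52-ps had 4000, 2800, 3200 and 3000 bp and Cyp4f41-ps had 2200, 1800, 2000 and 2600 bp, so both carried a peak in all 4 libraries with overlapping conditions. Cyp2d36-ps (4457 bp) and Cyp2d34-ps (3915 bp) were covered in shPHF8 replicate 1 alone.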
